A study of Mus musculus with 4 samples.

Results

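The 30 genes described here encode lysosomal proteases and hydrolases together with the membrane proteins, cofactors and transcription factors of that organelle. They were taken by symbol from the 32285 genes listed in each of 4 single-cell RNA-seq libraries, and all 30 were found in every library. The list held 10 cathepsins (Ctsa, Ctsb, Ctsc, Ctsd, Ctsf, Ctsh, Ctsk, Ctsl, Ctss and Ctsz) and 2 further proteases (Lgmn and Tpp1). It also held the glycosidases Hexa, Gusb and Neu1, the lipid-handling proteins Lipa, Npc1, Npc2, Psap, Gm2a and Asah1, and progranulin (Grn). The membrane proteins Lamp1, Lamp2, Cd63, Cd68 and Scarb2, the proton pump subunit Atp6v0d2 and the transcription factors Tfeb and Mitf completed it. The libraries came from Ndufa4KO mice, described in the study design as Ndufa4-deficient, and from wild-type (WT) mice. All mice were 8-week-old C57BL/6 males carrying subcutaneous B16-F10 melanoma, a transplantable mouse tumour line, and were sampled on day 18 after implantation. From tumours CD45+ immune cells were sorted, and from spleens CD45+ CD11b+ myeloid cells. Equal cell numbers from 3 mice per genotype, by the study design, were combined, so each organ and genotype was 1 pooled library. The extraction protocol names 3 to 4 mice. The labels name neither the allele nor whether the deletion was restricted to some cells. Ndufa4 encodes a subunit associated with mitochondrial complex IV, and the study's title names that complex in tumour-associated macrophages and interferon signalling.

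Lysosomes are acid compartments in which proteins, glycans and lipids taken up by endocytosis, phagocytosis or autophagy are broken down. Cathepsins are made as inactive precursors and matured in the acid lumen, which the vacuolar proton pump maintains. In macrophages the same compartment digests cell debris and prepares antigen for MHC class II, and Tfeb and Mitf belong to the MiT/TFE family of transcription factors that bind E-box sequences in lysosomal gene promoters.

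The Ndufa4KO tumour library held 6122 barcodes and the WT one 4798, and the Ndufa4KO spleen library held 7789 and the WT one 8107. After filters on genes, unique molecular identifiers (UMIs) and mitochondrial share, 4656 and 4019 tumour cells and 6952 and 7530 spleen cells remained for Ndufa4KO and WT. Their median UMI counts were 10534 and 7502 in the tumour libraries and 4465 and 4930.5 in the spleen libraries. Ndufa4 was at 14.7 counts per 1000000 UMIs (CPM) in the Ndufa4KO tumour library against 322 CPM in WT, and at 0.666 CPM in the Ndufa4KO spleen library against 264 CPM in WT. Between 6 and 22 cell barcodes were shared by any pair of libraries. Ptprc, which encodes CD45, had a UMI in 97.8% of Ndufa4KO and 89.6% of WT tumour cells. Itgam, which encodes CD11b, had a UMI in 76.2% of Ndufa4KO and 81.0% of WT spleen cells. Cell classes were assigned by marker lists that contain none of the 30 genes, and class names below mean cells that passed the gate of that name. Of the kept tumour cells, 10.997% in Ndufa4KO and 17.7% in WT passed no gate.

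Levels are UMIs of a gene summed over the cells of a class and divided by all UMIs of that class, in CPM. With 1 pooled library per group there was no test of genotype or organ. The 95% intervals given with levels and log2 ratios cover counting error only and say nothing of the variation between mice. A gene was counted as apart when its levels differed at least 1.5-fold and the 2 libraries together held at least 20 UMIs of it. The share of all genes that met this rule is given beside each count of members apart, except for counts under alternative settings.

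Macrophages held the highest levels of most of these genes in the tumour. They had the highest level among 10 tumour classes for 18 of the 30 members in the Ndufa4KO library and for 18 in WT. Plasmacytoid dendritic cells led for 4 members in each library, and neutrophils for 3 in Ndufa4KO and 4 in WT. In the spleen, red pulp macrophages, which clear aged red blood cells, led among 8 classes for 14 members in the Ndufa4KO library and 19 in WT. The 30 genes together took 2.28% of the UMIs of Ndufa4KO tumour macrophages and 2.50% of those of WT. In tumour T cells the share was 0.182% in Ndufa4KO and 0.193% in WT.

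**Figure D1:**
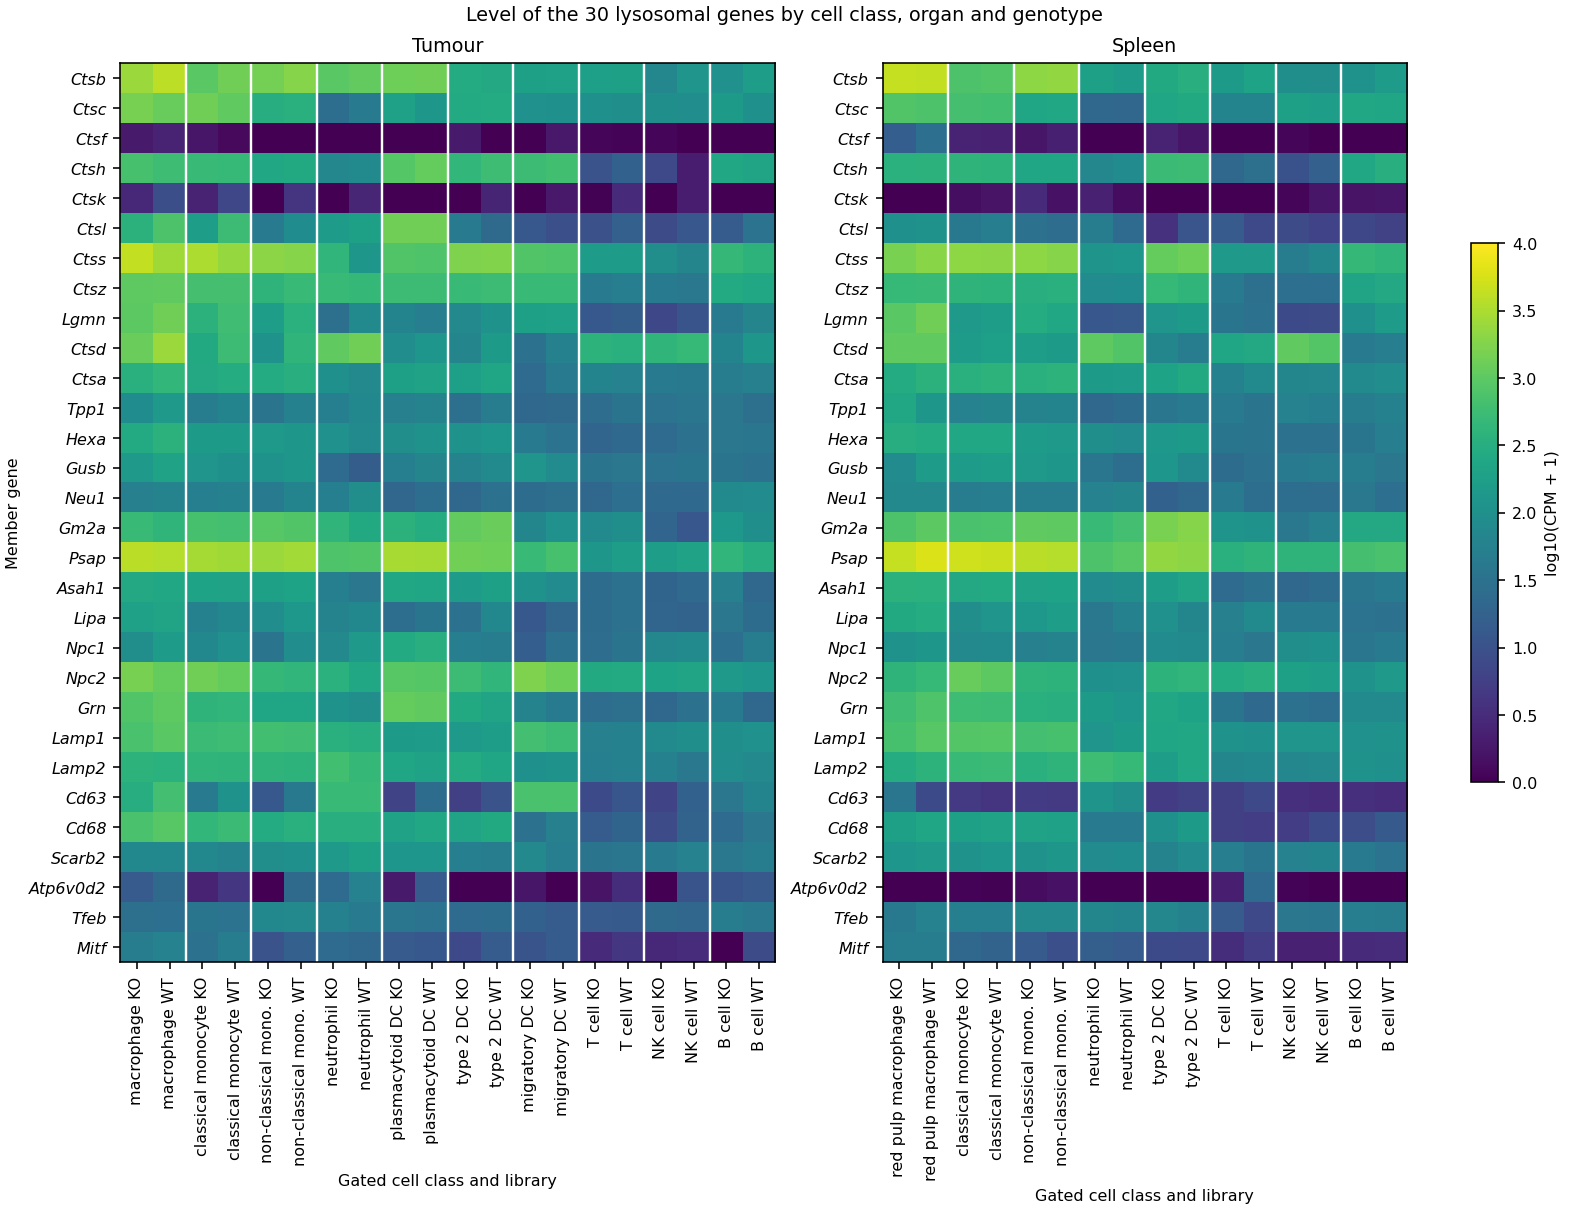
Level of each of the 30 genes, as log10(CPM + 1) on a colour scale, in the gated classes of tumour (left) and spleen (right), with the Ndufa4KO column beside the WT column of each class. Rows are genes and columns are class and library, and the macrophage columns are among the brightest for most rows in both organs.

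Within single genes the order of classes differed. Ctsd, which encodes the aspartic protease cathepsin D, was at 1204 CPM in Ndufa4KO tumour macrophages, with a Poisson interval of 1171 to 1237, and at 1064 CPM in Ndufa4KO tumour neutrophils, whose interval of 963 to 1174 overlapped it. In WT tumours Ctsd was at 2473 CPM in macrophages and 1375 CPM in neutrophils, and these intervals did not overlap. Ctsb, a cysteine protease, was highest in macrophages in both tumour libraries, at 2484 CPM in Ndufa4KO and 4015 CPM in WT, followed by non-classical monocytes at 1456 and 1857 CPM. Ctsl, the cysteine protease cathepsin L, was highest in plasmacytoid dendritic cells, at 1353 CPM in Ndufa4KO and 1350 CPM in WT. The tetraspanin gene Cd63 was highest in migratory dendritic cells, at 700.1 CPM in Ndufa4KO and 698.7 CPM in WT, and the migratory cells of both libraries therefore sat above the macrophages. Ctss, whose product trims the invariant chain of MHC class II, was highest in macrophages in both tumour libraries, followed by classical and then non-classical monocytes. Tfeb was highest in non-classical monocytes, at 71.4 CPM in Ndufa4KO and 75.6 CPM in WT.

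Across 36 points, each the level of a gene in 1 class of 1 library, the members most like Ctss in their log-scale pattern were Lgmn, Ctsz and Asah1, with Pearson's r of 0.889, 0.882 and 0.879. Ctsd had no close partner, with a highest r of 0.450 to Tpp1 and an r of -0.227 to Ctss. These points share libraries and class totals, and the coefficients are given as a description.

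In tumour macrophages, 237 cells of the Ndufa4KO library and 559 of WT, more members were lower in Ndufa4KO than higher. Of the 30 members 29 had enough UMIs, and Ctsf, with 4 UMIs in Ndufa4KO and 15 in WT, had not. Lower by at least 1.5-fold were 8 members (Ctsb, Ctsd, Ctsk, Ctsl, Cd63, Npc1, Tpp1 and Atp6v0d2), against a background of 12.5% of all 11103 genes with enough UMIs. Higher by that rule was 1 member, Ctss, against a background of 10.4%. The other 20 lay within 1.5-fold, and the median log2 ratio of Ndufa4KO over WT was -0.28 over the members and -0.02 over all genes.

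Among the cysteine cathepsins the ratios ran in opposite directions. Ctsl was at 369 CPM in Ndufa4KO macrophages and 750 CPM in WT macrophages, a log2 ratio of -1.02 (95% interval -1.10 to -0.94), which came within 1.5-fold when each cell was thinned to 1000 UMIs (-0.46). Ctsb was at 2484 CPM in Ndufa4KO and 4015 CPM in WT, a log2 ratio of -0.69 (-0.72 to -0.66). This difference was within 1.5-fold when each cell was thinned to 1000 UMIs (-0.37), when cells were weighted equally (-0.46) and when the Ndufa4KO subsets were weighted to the WT mix (-0.45). Ctsk, known for collagen breakdown in osteoclasts, was rare, with 8 UMIs in Ndufa4KO and 85 in WT, or 1.88 and 8.24 CPM. Ctss went the other way, at 4224 CPM in Ndufa4KO against 2691 CPM in WT, which is 1.57-fold higher (log2 ratio 0.65, 0.62 to 0.68). Ctsc, the dipeptidyl peptidase that activates granule serine proteases, was at 1520 CPM in Ndufa4KO and 1173 CPM in WT, and the aminopeptidase Ctsh at 678 and 564 CPM. Both were within 1.5-fold, as was the carboxypeptidase Ctsz at 1013 CPM in Ndufa4KO and 1039 CPM in WT. Lgmn, the asparaginyl endopeptidase that processes other cathepsins, was at 986 CPM in Ndufa4KO and 1380 CPM in WT, a log2 ratio of -0.48 (-0.53 to -0.43).

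Ctsd was among the best counted of the lower members, with 5110 UMIs in Ndufa4KO and 25513 in WT macrophages. Its level of 1204 CPM in Ndufa4KO was 2.05-fold lower than the 2473 CPM in WT (log2 ratio -1.04, -1.08 to -0.996). Across the alternatives its log2 ratio stayed between -1.17 and -0.66. The serine peptidase Tpp1 was at 87.6 CPM in Ndufa4KO and 139 CPM in WT (log2 ratio -0.67, -0.84 to -0.50), and within 1.5-fold when the Ndufa4KO subsets were weighted to the WT mix (-0.56). The serine carboxypeptidase Ctsa, which protects the sialidase Neu1, was within 1.5-fold at 344 CPM in Ndufa4KO and 452 CPM in WT. The glycosidases were within 1.5-fold as well, with Hexa at 280 CPM in Ndufa4KO and 372 CPM in WT, Gusb at 141 and 197 CPM, and Neu1 at 54.4 and 59.6 CPM.

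The lipid-handling members were split. Npc1, the membrane protein that exports cholesterol from lysosomes, was at 94.4 CPM in Ndufa4KO and 154 CPM in WT (log2 ratio -0.71, -0.87 to -0.55). Its luminal partner Npc2 was at 1502 CPM in Ndufa4KO and 1136 CPM in WT, a log2 ratio of 0.40 that lay within 1.5-fold. The sphingolipid cofactors Psap and Gm2a, the ceramidase Asah1, the acid lipase Lipa and Grn had log2 ratios between -0.28 and 0.28. Of the membrane proteins only Cd63 was apart, at 306 CPM in Ndufa4KO and 636 CPM in WT (log2 ratio -1.06, -1.14 to -0.97). It came within 1.5-fold with thinned cells (-0.53) and with equally weighted cells (-0.58). Lamp1, an abundant glycoprotein of the lysosomal membrane, was at 710 CPM in Ndufa4KO and 956 CPM in WT (-0.43, -0.49 to -0.37). Lamp2 and Scarb2 had log2 ratios of 0.11 and -0.02, and Cd68 one of -0.37.

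Atp6v0d2 and the transcription factors had low levels. Atp6v0d2, a macrophage and osteoclast isoform of a proton pump subunit, had 56 UMIs in Ndufa4KO and 241 in WT, or 13.2 and 23.4 CPM. Its log2 ratio of -0.82 turned to 0.45 with thinned cells, 0.072 with equally weighted cells and 0.64 with the WT subset mix, so its direction depended on how cells were weighted. Tfeb was at 29.0 CPM in Ndufa4KO and 28.3 CPM in WT (log2 ratio 0.03, -0.28 to 0.34). Mitf was at 48.8 CPM in Ndufa4KO and 59.0 CPM in WT (-0.28, -0.51 to -0.05).

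**Figure D2:**
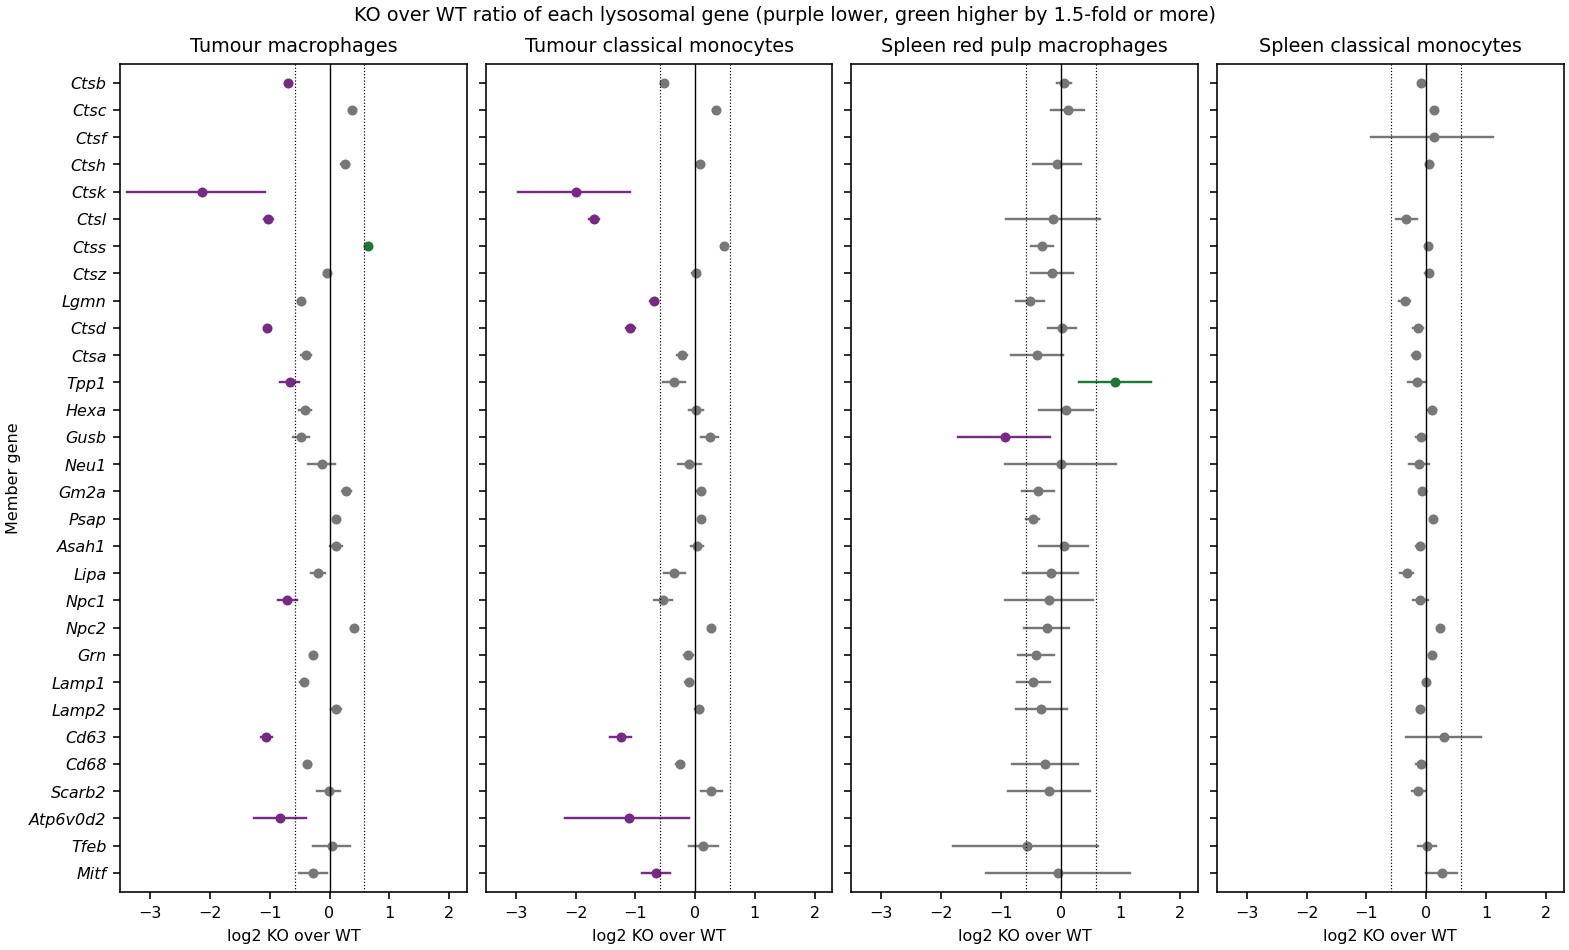
Log2 ratio of Ndufa4KO over WT for each of the 30 genes in tumour macrophages, tumour classical monocytes, spleen red pulp macrophages and spleen classical monocytes, with the 95% counting interval as a line. Dotted lines mark 1.5-fold, purple points are lower and green points higher by that rule, and genes with too few UMIs have no point. The tumour panels hold 8 of 29 and 7 of 29 purple points (background 12.5% and 9.05% of all genes). The spleen panels hold 1 of 26 and 0 of 28 (background 14.3% and 4.79%), with small counts in red pulp macrophages.

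The promoters of 4 members with contrasting ratios are shown because they differ in the E-box core that MiT/TFE factors bind. All 30 members are protein-coding genes in the GENCODE annotation of GRCm38, and RefSeq promoter windows on GRCm38.p6, from 250 bases before to 50 bases after RefSeq's gene start, were at hand for 25 of them. Ctsd lies on the minus strand at chr7:142375911-142388038, Ctsl on the minus strand at chr13:64359337-64370890, and Ctss on the plus strand at chr3:95526786-95556403. The windows shown are chr7:142387778-142388077 (minus strand) for Ctsd, chr13:64370471-64370770 (minus strand) for Ctsl, chr8:13158911-13159210 (plus strand) for Lamp1 and chr3:95526536-95526835 (plus strand) for Ctss. RefSeq's start lies 211 bases inside the GENCODE gene for Ctsd and 370 bases inside it for Ctsl, so the Ctsl window is within the annotated gene and most of the Ctsd window is, whereas both starts coincide for Lamp1 and Ctss. Each window is written 5′ to 3′ with every CACGTG in capitals.
Ctsd promoter: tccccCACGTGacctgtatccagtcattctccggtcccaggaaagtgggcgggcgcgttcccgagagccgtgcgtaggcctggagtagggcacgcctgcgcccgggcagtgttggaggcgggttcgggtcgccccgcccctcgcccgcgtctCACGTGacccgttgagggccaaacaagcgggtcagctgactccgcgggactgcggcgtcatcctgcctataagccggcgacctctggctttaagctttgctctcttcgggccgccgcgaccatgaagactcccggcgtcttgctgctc
Ctsl promoter: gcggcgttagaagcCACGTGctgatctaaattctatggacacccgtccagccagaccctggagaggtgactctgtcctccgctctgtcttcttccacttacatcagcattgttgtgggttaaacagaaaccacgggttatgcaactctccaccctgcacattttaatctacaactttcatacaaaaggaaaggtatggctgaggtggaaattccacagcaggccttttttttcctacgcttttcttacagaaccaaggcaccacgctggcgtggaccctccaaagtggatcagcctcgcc
Lamp1 promoter: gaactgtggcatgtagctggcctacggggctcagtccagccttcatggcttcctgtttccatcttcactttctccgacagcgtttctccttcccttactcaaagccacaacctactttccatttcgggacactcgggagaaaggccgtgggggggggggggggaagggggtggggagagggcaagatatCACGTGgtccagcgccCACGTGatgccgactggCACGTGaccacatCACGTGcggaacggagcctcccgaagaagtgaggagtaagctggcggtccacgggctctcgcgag
Ctss promoter: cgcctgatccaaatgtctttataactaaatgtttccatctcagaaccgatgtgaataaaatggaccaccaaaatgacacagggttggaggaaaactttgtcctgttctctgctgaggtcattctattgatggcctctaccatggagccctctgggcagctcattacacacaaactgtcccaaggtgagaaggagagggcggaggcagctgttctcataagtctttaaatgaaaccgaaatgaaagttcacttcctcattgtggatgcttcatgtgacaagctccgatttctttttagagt
The window of Lamp1 held 4 copies of CACGTG, that of Ctsd 2, that of Ctsl 1 and that of Ctss 0. CACGTG reads the same on both strands, and it was present in 6 of the 25 members' windows (Ctsa, Ctsd, Ctsf, Ctsl, Lamp1 and Lgmn), or 24.0%, against 8.09% of 27025 genes. The longer TCACGTGA, which contains it, was present for Ctsa and Ctsd, or 8.0% of the members against 1.12% of all genes. The 10-base CLEAR sequence, which contains both, was in 0 of the members' windows and in 0.370% of all genes. In tumour macrophages the genes whose windows held CACGTG had log2 ratios of -0.39 for Ctsa, -1.04 for Ctsd, -1.02 for Ctsl, -0.43 for Lamp1 and -0.48 for Lgmn, with Ctsf not counted for too few UMIs. Ctsk, Cd63 and Tpp1, also lower by at least 1.5-fold, had no CACGTG in this window. Ctsb, Npc1 and Atp6v0d2, lower as well, had no window at hand. Of the other members without CACGTG, Gusb (-0.48), Hexa (-0.41), Cd68 (-0.37), Grn (-0.28), Mitf (-0.28), Lipa (-0.20), Neu1 (-0.13), Ctsz (-0.04) and Scarb2 (-0.02) were below 0. Above it were Tfeb (0.03), Lamp2 (0.11), Psap (0.11), Gm2a (0.28), Ctsc (0.37), Npc2 (0.40) and Ctss (0.65). Among those with it, Ctsa, Lamp1 and Lgmn were within 1.5-fold. Any link of the motif to the ratios was not tested. For Cd63 RefSeq's start lies 8356 bases inside the GENCODE gene. For Ctsa and Lgmn the CACGTG was in a window whose RefSeq start lies 900 and 721 bases inside the GENCODE gene. Their other window, nearer the GENCODE start, had no CACGTG. This holds for these letters and these windows alone.

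Markers of other cell types also differed between the macrophages of the genotypes. The 10 macrophage gate markers summed to 14966 CPM in Ndufa4KO and 18348 CPM in WT, and the 8 classical monocyte markers to 3239 CPM in Ndufa4KO and 1619 CPM in WT. The T cell list, detected in full in both, summed to 89.5 CPM in Ndufa4KO and 18.8 CPM in WT, and the natural killer (NK) cell list to 57.9 and 4.75 CPM. The neutrophil list summed to 175 CPM in Ndufa4KO and 610 CPM in WT, and the 6 melanoma markers, all detected, to 56.5 CPM in Ndufa4KO and 35.6 CPM in WT. The 5 platelet markers, of which Gp9 was at 0 in both libraries and Gp1ba in Ndufa4KO, summed to 167 CPM in Ndufa4KO and 1439 CPM in WT. In the Cxcl9 subset described below, this sum was 71.1 CPM in Ndufa4KO and 336 CPM in WT and came from Pf4 alone. Ppbp, Gp9, Itga2b and Gp1ba were at 0 there, so the sum is not a count of platelets. The 6 non-classical monocyte markers, all detected, summed to 104 CPM in Ndufa4KO and 44.4 CPM in WT. Median UMIs per macrophage were 17614 in Ndufa4KO and 15425 in WT. Of these cells 187 of the 237 in Ndufa4KO and 474 of the 559 in WT also led every other class, neighbouring monocytes included, by the full gate margin. When only such cells were used, the log2 ratio was -0.98 for Ctsd, -0.82 for Ctsl and -0.66 for Ctsb. The part of the other differences in these results was not tested.

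Free RNA in droplet libraries adds a low count of abundant genes to every class, and tumour T cells are given beside the macrophages for that reason. Ctsl was at 8.66 CPM in Ndufa4KO T cells and 15.9 CPM in WT T cells, or 2.34% and 2.12% of the macrophage level of the same library. Cd63 in T cells was at 2.24% of the macrophage level in Ndufa4KO and 1.68% in WT, and Ctss at 3.70% and 5.79%. Ctsd was present in T cells at 389 CPM in Ndufa4KO and 350 CPM in WT, which was 32.3% and 14.1% of the macrophage level.

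Single cells were compared at equal depth. They were thinned to 2000 UMIs, which kept 222 Ndufa4KO and 531 WT tumour macrophages and left out 15 and 28 shallower ones. Ctsd then had a UMI in 73.0% of Ndufa4KO macrophages (95% binomial interval 66.6% to 78.7%) and 84.2% of WT macrophages (80.8% to 87.2%), and without thinning in 94.5% and 97.3%. The mean was 2.83 Ctsd UMIs per cell in Ndufa4KO and 4.90 in WT, and the 90th percentile over cells was 6.9 UMIs in Ndufa4KO and 12 in WT. In T cells Ctsd had a UMI in 47.6% of Ndufa4KO and 42.9% of WT cells after the same thinning. Ctsl had a UMI in 39.6% of Ndufa4KO and 51.4% of WT macrophages, against 1.14% and 2.82% of T cells, and without thinning in 78.1% and 84.6% of macrophages. Cd63 had a UMI in 39.6% of Ndufa4KO and 52.7% of WT macrophages, against 1.35% and 2.12% of T cells, and without thinning in 64.1% and 74.6% of macrophages. For Ctss the median was 8 UMIs per Ndufa4KO macrophage and 5 per WT macrophage, and nearly every cell of either library had at least 1.

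**Figure D3:**
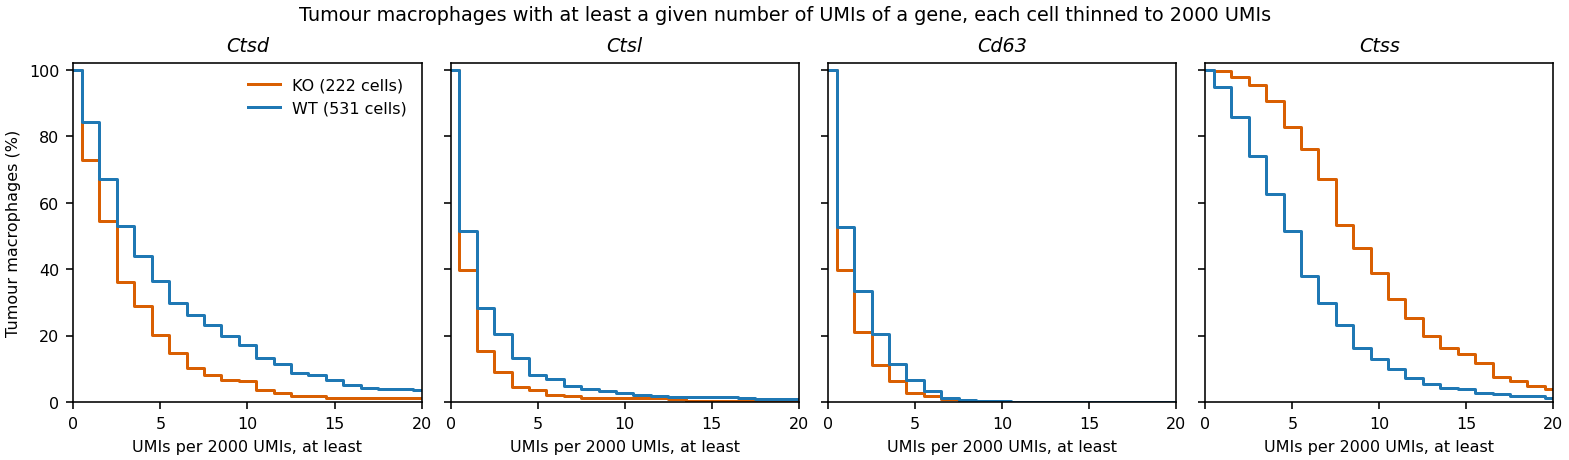
Ctsd, Ctsl, Cd63 and Ctss over single tumour macrophages thinned to 2000 UMIs, Ndufa4KO (222 cells) and WT (531 cells). The horizontal axis is a number of UMIs of the gene, and the vertical axis the percent of cells with at least that number. For Ctsd, Ctsl and Cd63 a smaller share of the Ndufa4KO cells has any UMI. For Ctss the Ndufa4KO cells sit at higher counts, with a median of 8 against 5 in WT.

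Tumour macrophages were split by Arg1, by Cxcl9 and by Ccl8 or Vcam1. The Ndufa4KO library held 34 Arg1, 84 Cxcl9, 37 Ccl8 or Vcam1 and 82 macrophages of no subset, and the WT library 128, 56, 148 and 227. The markers that define the subsets also differed between genotypes inside them, with Arg1 at 2471 CPM in Ndufa4KO and 5027 CPM in WT cells of the Arg1 subset and Cxcl9 at 3208 and 1939 CPM in the Cxcl9 subset. With the Ndufa4KO subsets weighted to the WT mix, the log2 ratio in macrophages was -0.66 for Ctsd, -0.76 for Ctsl, -0.67 for Cd63 and 0.70 for Ctss.

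In Arg1 macrophages, 6 of 29 members were lower by at least 1.5-fold in Ndufa4KO (background 14.2%) and 3 higher (background 17.1%). Ctsl reached its highest macrophage level here and was at 896 CPM in Ndufa4KO and 1788 CPM in WT, a log2 ratio of -0.997 (-1.14 to -0.86). Ctsd was at 1082 CPM in Ndufa4KO and 1855 CPM in WT (-0.78, -0.90 to -0.65), and Cd63 at 258 and 440 CPM (-0.77). Npc1 had a log2 ratio of -0.63, and Ctsk and Atp6v0d2 were lower on 4 UMIs each in Ndufa4KO against 52 and 79 in WT. Ctss was at 4313 CPM in Ndufa4KO and 2096 CPM in WT (1.04, 0.97 to 1.11), Ctsc at 1441 and 820 CPM (0.81), and Npc2 at 2122 and 1346 CPM (0.66). Ctsb, at 3353 CPM in Ndufa4KO and 3696 CPM in WT, Lgmn (log2 ratio 0.11), Lamp1 (-0.13), Tfeb (-0.09) and Mitf (-0.36) were within 1.5-fold.

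In Cxcl9 macrophages, 4 of 27 members were lower (background 11.8%) and 0 higher (background 11%). Ctsd was at 932 CPM in Ndufa4KO and 1843 CPM in WT (log2 ratio -0.98, -1.07 to -0.89), Ctsb at 2067 and 3197 CPM (-0.63), Lgmn at 839 and 1328 CPM (-0.66) and Gusb, the beta-glucuronidase, at 154 and 240.5 CPM (-0.65). Ctsl was at 273 CPM in Ndufa4KO and 293 CPM in WT and so was not apart in this subset. Ctss was at 4244 CPM in Ndufa4KO and 3164 CPM in WT (0.42, 0.37 to 0.48).

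In Ccl8 or Vcam1 macrophages, 6 of 28 members were lower (background 27.4%) and 4 higher (background 13.8%). The shallow Ndufa4KO cells of this subset had a median of 5266 UMIs, against 12640 in WT. Markers of other cell types differed too, with the NK cell list at 194 CPM in Ndufa4KO and 9.995 CPM in WT, the T cell list at 130 and 13.3 CPM and the neutrophil list at 57.9 and 975 CPM, and their part in these ratios was not tested. Ctsd reached its highest level here, at 2621 CPM in Ndufa4KO and 4593 CPM in WT (log2 ratio -0.81, -0.92 to -0.70). Ctsb was at 3752 CPM in Ndufa4KO and 5880 CPM in WT (-0.65), Lamp1 at 886 and 1339 CPM (-0.60) and Gusb at 106 and 264 CPM (-1.32). Npc1 and Tpp1 had log2 ratios of -0.88 and -0.85. Higher were Ctss at 5003 CPM in Ndufa4KO and 2971 CPM in WT (0.75), Npc2 at 1656 and 1082 CPM (0.61), Atp6v0d2 at 116 and 34.4 CPM (1.75, 1.14 to 2.33) and Tfeb on 11 and 65 UMIs (0.64, -0.43 to 1.57). Atp6v0d2 was thus lower in the Arg1 subset and higher in this one.

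In the macrophages of no subset, 4 of 29 members were lower (Ctsk, Ctsl, Cd63 and Npc1, background 9.39%) and Ctss alone was higher (background 11.1%). Ctsd had a log2 ratio of -0.29 in these cells, Ctsl one of -0.74 and Cd63 one of -1.04. Ctsd and Ctss therefore had the same sign in every subset, while the size of the Ctsd ratio ran between -0.98 and -0.29. No difference between subsets was tested.

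**Figure D4:**
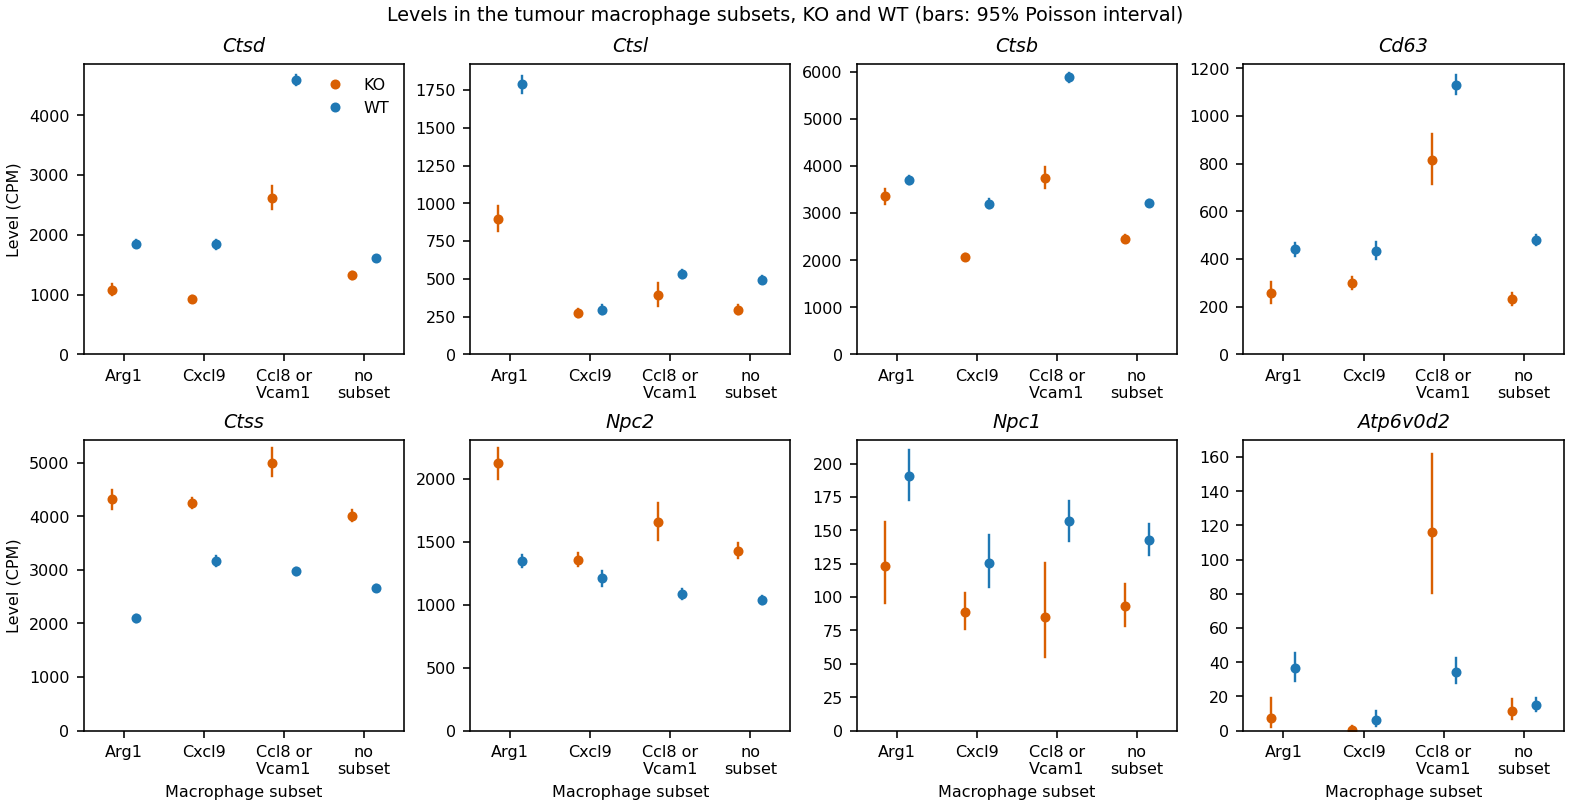
Levels in CPM of Ctsd, Ctsl, Ctsb, Cd63, Ctss, Npc2, Npc1 and Atp6v0d2 in the tumour macrophage subsets, with Ndufa4KO (orange) left of WT (blue) and bars for the 95% Poisson interval. Ctsd is lower and Ctss higher in Ndufa4KO in each subset, Ctsl is apart in the Arg1 subset and not in the Cxcl9 subset, and Atp6v0d2 changes direction between the Arg1 and the Ccl8 or Vcam1 subsets.

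Tumour classical monocytes, the Ly6c2-marked cells that can become macrophages in tissue, numbered 605 in Ndufa4KO and 469 in WT. Lower by at least 1.5-fold were 7 of 29 members (background 9.05%), and 0 were higher (background 10.4%). The median log2 ratio was -0.11 over the members and 0.03 over all genes. Ctsl had the largest of the well-counted differences, at 174 CPM in Ndufa4KO and 558 CPM in WT, which is 3.21-fold lower (log2 ratio -1.68, -1.77 to -1.60). Ctsd was at 265 CPM in Ndufa4KO and 561 CPM in WT (-1.08, -1.16 to -1.01), Cd63 at 45.6 and 108 CPM (-1.24) and Lgmn at 372 and 599 CPM (-0.69). Mitf was at 29.6 CPM in Ndufa4KO and 46.7 CPM in WT (-0.66, -0.90 to -0.43), and Ctsk and Atp6v0d2 were lower on 14 UMIs each in Ndufa4KO against 44 and 24 in WT. Within 1.5-fold came Mitf with thinned (-0.51) and with equally weighted cells (-0.57), Lgmn with thinned cells (-0.49), and Atp6v0d2 with a gate margin also between neighbouring classes (-0.22). Ctsb was at 955 CPM in Ndufa4KO and 1372 CPM in WT (-0.52) and Ctss at 3223 and 2316 CPM (0.48), both within 1.5-fold. Lamp1 and Tfeb had log2 ratios of -0.11 and 0.14. In these cells the monocyte markers summed to 9401 CPM in Ndufa4KO and 6835 CPM in WT and the macrophage markers to 3713 and 3035 CPM. The red pulp macrophage list summed to 1095 CPM in Ndufa4KO and 1551 CPM in WT, the list of tumour macrophage subset markers to 1450 and 1941 CPM, with Arg1 alone at 184 and 1678 CPM, and the part of these differences was not tested. Median depth was 14036 UMIs in Ndufa4KO and 15095 in WT.

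Taken as 1 class of 842 Ndufa4KO and 1028 WT cells, macrophages and classical monocytes had 11 of 30 members lower (background 12.9%) and 0 higher (background 10.8%), with a log2 ratio of -1.58 for Ctsd and -1.71 for Cd63. This joint value also carries the smaller number of macrophages in the Ndufa4KO library.

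Non-classical monocytes, marked by Ace and Adgre4, numbered 112 in Ndufa4KO and 118 in WT tumours. Lower were 8 of 28 members (background 10.4%) and 0 were higher (background 11.1%). Ctsd was at 110 CPM in Ndufa4KO and 414 CPM in WT, which is 3.77-fold lower (log2 ratio -1.91, -2.24 to -1.60). Lgmn was at 176 CPM in Ndufa4KO and 358 CPM in WT (-1.03), Npc1 at 33.1 and 91.5 CPM (-1.47), Ctsl at 42.7 and 87.5 CPM (-1.04), Cd63 at 11.7 and 39.8 CPM (-1.76) and Tpp1 at 34.1 and 56.7 CPM (-0.73). Atp6v0d2 had 0 UMIs in Ndufa4KO and 23 in WT, which is at least 7.15-fold lower against a floor of 3 counts in the library. Mitf was lower on 9 UMIs in Ndufa4KO and 16 in WT (-0.73). Within 1.5-fold came Ctsl with mixed cells kept (-0.18) and with a gate margin of 0.2 (-0.52), Tpp1 with mixed cells kept (-0.57), and Mitf with equally weighted cells (-0.57) and with a mitochondrial limit of 20% or none (-0.33 in both). Ctsb (-0.35), Ctss (0.11), Lamp1 (0.05) and Tfeb (-0.08) were within 1.5-fold.

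Among the other tumour classes, T cells and plasmacytoid and migratory dendritic cells had members lower only. The rest had members apart in both directions, with values as follows. Neutrophils, 103 in Ndufa4KO and 806 in WT, had 5 of 28 members lower (Ctsc, Lgmn, Npc1, Neu1 and Atp6v0d2, background 14.3%) and 3 higher (Ctss, Gusb and Gm2a, background 29.2%). Their median over all genes was itself 0.20 on the log2 scale. Ctss was at 426 CPM in Ndufa4KO neutrophils and 131.5 CPM in WT neutrophils (log2 ratio 1.69, 1.42 to 1.96), and Lgmn at 29.3 and 79.4 CPM (-1.44). Ctsd, at 1064 CPM in Ndufa4KO and 1375 CPM in WT, was within 1.5-fold in neutrophils, as were Ctsb (-0.20), Lamp1 (0.14), Tfeb (0.36) and Mitf (0.20). Npc1 was at 74.5 CPM in Ndufa4KO and 143 CPM in WT (-0.94), and Gm2a at 409.8 and 273 CPM (0.59), while Ctsc, Gusb, Neu1 and Atp6v0d2 rested on 9 to 20 UMIs in Ndufa4KO.

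In T cells, 1968 in Ndufa4KO and 749 in WT, 6 of 29 members were lower (background 8.59%) and 0 higher (background 6.57%). Those 6 were Ctsh, Ctsk, Ctsl, Cd63, Atp6v0d2 and Mitf, at 0.0743 to 9.40 CPM in Ndufa4KO and 2.16 to 16.4 CPM in WT, while Ctsd had a log2 ratio of 0.15, Ctss one of 0.002 and Ctsb one of -0.05. Lamp1 (-0.07), Lgmn (-0.27) and Tfeb (0.03) were within 1.5-fold in T cells. NK cells, 709 in Ndufa4KO and 137 in WT, had 5 of 26 members lower (background 12.4%) and 2 higher (background 9.13%), with Ctsb at 69.3 CPM in Ndufa4KO and 121 CPM in WT (-0.81). The others lower were Ctsl, Cd63, Cd68 and Lgmn, on 9 to 16 UMIs in the smaller WT class, and the others apart were Ctsh and Gm2a, which were higher. Ctss (0.53), Lamp1 (-0.30) and Tfeb (0.19) were within 1.5-fold in NK cells. The members lower in T and NK cells stood at higher levels in the macrophages of the same library. Of them Ctsk, Atp6v0d2 and Mitf were low there too, at 1.88, 13.2 and 48.8 CPM in Ndufa4KO and 8.24, 23.4 and 59.0 CPM in WT. How much of the lymphocyte signal was free RNA was not tested.

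Plasmacytoid dendritic cells, 81 in Ndufa4KO and 74 in WT, had only Cd63 lower among 27 members (background 10.7%) and 0 higher (background 9.5%). Their Ctsl level, at 1353 CPM in Ndufa4KO and 1350 CPM in WT, differed by less than its counting error, and Ctsb was at 1299.8 CPM in Ndufa4KO and 1344 CPM in WT. The log2 ratios of Ctss, Lgmn, Lamp1, Tfeb and Mitf ran between -0.13 and 0.33. Type 2 dendritic cells, 57 in Ndufa4KO and 59 in WT, had 5 of 26 members lower (background 11.8%) and 1 higher (background 11.3%). In them Ctsd was at 66.0 CPM in Ndufa4KO and 150.3 CPM in WT (-1.19, -1.60 to -0.78), whereas Ctsl was at 45.6 and 22.7 CPM (1.002, 0.30 to 1.73). Lipa was at 31.6 CPM in Ndufa4KO and 72.3 CPM in WT (-1.19), and Tpp1, Neu1 and Mitf were lower on 7 to 31 UMIs in Ndufa4KO. Ctsb (0.11), Ctss (-0.04), Lamp1 (-0.27), Lgmn (-0.57) and Tfeb (-0.06) were within 1.5-fold in these dendritic cells. Migratory dendritic cells, 90 in Ndufa4KO and 70 in WT, had 6 of 27 members lower (Ctsa, Ctsd, Cd68, Lipa, Npc1 and Gm2a, background 11.1%) and 0 higher (background 11%). Their Cd63 level of 700.1 CPM in Ndufa4KO stood beside 698.7 CPM in WT. The members lower there had 15 to 87 UMIs in Ndufa4KO and 23 to 122 in WT. B cells, 74 in Ndufa4KO and 147 in WT, had 6 of 26 members lower (background 18.5%) and 2 higher (background 9.68%). Ctsd was at 63.2 CPM in Ndufa4KO B cells and 129 CPM in WT B cells (-1.03, -1.65 to -0.45), and Asah1 at 53.4 and 20.4 CPM (1.39). The others lower were Ctsb, Ctsl, Cd63, Cd68 and Npc1, and the other one higher was Grn, with Ctss (0.24), Lamp1 (-0.06), Lgmn (-0.51) and Tfeb (0.31) within 1.5-fold.

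In the spleen, 1 member was lower and 1 higher in red pulp macrophages between the genotypes. These cells numbered 74 in Ndufa4KO and 66 in WT, with median depths of 1805.5 and 1764 UMIs, so the counts were small. Gusb was lower, at 83.2 CPM in Ndufa4KO and 159 CPM in WT (1 of 26 members, background 14.3%), and Tpp1 was higher, at 246 CPM in Ndufa4KO and 131 CPM in WT (1 of 26, background 17.9%). The log2 ratio of Gusb was -0.93, and -0.18 with equally weighted cells. That of Tpp1 was 0.91, turned to -0.15 with equally weighted cells, and was within 1.5-fold with thinned cells (0.27), with mixed cells kept (0.47) and with a mitochondrial limit of 20% (0.55) or none (0.56). Ctsd was at 1056 CPM in Ndufa4KO and 1043 CPM in WT, a log2 ratio of 0.02, Ctsb at 4489 and 4322 CPM (0.05) and Ctsl at 101 and 110.5 CPM (-0.13). Ctss was at 1584 CPM in Ndufa4KO and 1975 CPM in WT (-0.32, -0.50 to -0.14), and Lgmn and Lamp1 had log2 ratios of -0.51 and -0.45. Tfeb and Mitf had 11 and 13 UMIs in Ndufa4KO and 17 and 14 in WT. Marker lists differed between the genotypes in this class too. The classical monocyte list summed to 792 CPM in Ndufa4KO and 1799 CPM in WT, and the non-classical list to 908 and 1364 CPM. The red pulp macrophage list summed to 17388 CPM in Ndufa4KO and 13775 CPM in WT, and the neutrophil list to 818 and 604 CPM. The part of these differences in the ratios was not tested.

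Spleen classical monocytes, 804 in Ndufa4KO and 1380 in WT, had 0 of 28 members lower (background 4.79%) and 0 higher (background 6.71%), at depths that gave Ctss 19778 UMIs in Ndufa4KO and 39115 in WT. Ctsd was at 162 CPM in Ndufa4KO and 179 CPM in WT (-0.14), Ctsl at 39.8 and 50.1 CPM (-0.33), Ctss at 2068 and 2017 CPM (0.04) and Lgmn at 137 and 176 CPM (-0.36). Non-classical monocytes of the spleen had 0 of 27 members lower (background 5.19%) and Mitf alone higher, on 37 UMIs in Ndufa4KO and 75 in WT (background 5.11%). Ctsb (-0.08), Ctss (0.11), Lamp1 (-0.14), Lgmn (0.22) and Tfeb (-0.02) were within 1.5-fold there. Spleen neutrophils had 0 of 27 lower (background 9.25%) and Ctsl alone higher (background 4.98%), at 49.3 CPM in Ndufa4KO and 24.3 CPM in WT. Spleen NK cells had Ctsh and Cd68 lower (2 of 27 members, background 4.71%) and 0 higher (background 3.65%).

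Of the spleen classes with fewer of these transcripts, B cells, 241 in Ndufa4KO and 173 in WT, had 3 of 24 members lower (background 8.13%) and 0 higher (background 6.46%). Ctsb was at 107 CPM in Ndufa4KO and 163 CPM in WT (-0.60), Lgmn at 99.4 and 157 CPM (-0.66), and Cd68 had 12 and 17 UMIs. T cells, 156 in Ndufa4KO and 68 in WT, had Lipa lower among 22 members (background 11.4%), at 53.3 CPM in Ndufa4KO and 81.7 CPM in WT, and Ctsz, Grn and Neu1 higher (background 9.83%), on 10 to 13 UMIs in WT. Type 2 dendritic cells, 71 in Ndufa4KO and 111 in WT, had Cd68 lower among 24 members (background 10.7%), at 100.3 CPM in Ndufa4KO and 151 CPM in WT. Gusb, at 124 CPM in Ndufa4KO and 81.2 CPM in WT, and Lipa, at 104 and 67.4 CPM, were higher in these dendritic cells (background 8.76%).

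The difference between the tumour and the spleen ratio was computed for each member with enough UMIs in both. It was not computed for all genes, so the counts here have no background beside them. The difference was below 0 for 10 of 26 members in macrophages, 16 of 27 in classical and 21 of 27 in non-classical monocytes. For macrophages its 95% counting interval left out 0 for 10 of 26 members, with -1.06 for Ctsd (-1.29 to -0.82), -0.75 for Ctsb (-0.86 to -0.63), -0.90 for Ctsl (-1.63 to -0.16), 0.97 for Ctss (0.79 to 1.15) and -1.57 for Tpp1 (-2.17 to -0.98). The others of these members were Gm2a (0.65), Npc2 (0.64), Psap (0.58), Lamp2 (0.43) and Hexa (-0.50). For classical monocytes the interval left out 0 for 17 of 27 members, with -0.94 for Ctsd (-1.05 to -0.83), -1.35 for Ctsl (-1.54 to -1.16) and -1.54 for Cd63 (-2.15 to -0.93). Above 0 among these were Ctss (0.44), Scarb2 (0.40), Gusb (0.33), Ctsc (0.23), Gm2a (0.16), Lamp2 (0.16) and Asah1 (0.14), and the rest were below it. For non-classical monocytes the interval left out 0 for 11 of 27, with -2.09 for Ctsd (-2.43 to -1.74). Of these only Lamp2 (0.26) and Lamp1 (0.19) were above 0. The tumour and spleen macrophages are different kinds of cell, gated by different marker lists, and the sorts differed in CD11b. Monocyte markers also differed between genotypes in both macrophage classes, and their part in these differences was not tested.

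Read as tumour over spleen within a genotype, the same cells show how far each tumour level stood from the spleen level. In Ndufa4KO macrophages 4 of 28 members were lower in the tumour (Ctsb, Gm2a, Tpp1 and Scarb2, background 42.9%) and 9 higher (Ctsc, Ctsh, Ctsl, Ctss, Ctsz, Cd63, Cd68, Gusb and Npc2, background 21.7%), with a median log2 ratio of 0.13 over the members and -0.36 over all genes. In WT macrophages 5 of 30 were lower (Ctsf, Psap, Gm2a, Scarb2 and Tfeb, background 44.4%) and 8 higher (Ctsc, Ctsd, Ctsl, Ctsz, Cd63, Cd68, Npc2 and Atp6v0d2, background 19.1%), with medians of 0.27 over the members and -0.42 over all genes. In WT, Ctsc came within 1.5-fold with equally weighted cells (0.32), and Psap (-0.37) and Scarb2 (-0.58) did when centred on the median of all genes. So did Ctsc with a mitochondrial limit of 20% (0.51) or none (0.50), with a gate margin of 0.2 (0.49) and without the top 5% of cells by UMIs (0.53). Psap did so with mixed cells kept as well (-0.54). Ctsd was at 1204 CPM in the tumour and 1056 CPM in the spleen of Ndufa4KO mice (log2 ratio 0.19, 0.02 to 0.36), and at 2473 CPM in the tumour and 1043 CPM in the spleen of WT mice (1.25, 1.08 to 1.41). Ctsl was higher in the tumour in both, by 1.87 on the log2 scale in Ndufa4KO and 2.76 in WT. Cd63 was at 306 CPM in the tumour on 1298 UMIs and 36.2 CPM in the spleen on 10 UMIs in Ndufa4KO (3.08, 2.196 to 4.14), and at 636 and 6.90 CPM on 6558 and 2 UMIs in WT (6.52, 4.67 to 9.57). Ctss was higher in the tumour by 1.41 in Ndufa4KO and by 0.45 in WT. Cd68 and Npc2 were higher in the tumour in both genotypes, by 1.95 and 1.89 in Ndufa4KO and 2.06 and 1.25 in WT. Atp6v0d2 had 241 UMIs in WT tumour macrophages and 0 in WT spleen macrophages, which is at least 2.26-fold higher against a floor of 3 counts in the spleen library.

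In classical monocytes 6 of 28 members were lower in the tumour than in the spleen (background 39.4%) and 8 higher (background 14.3%) in Ndufa4KO, and 7 of 30 lower (background 41.1%) and 11 higher (background 14.7%) in WT. Ctsl was higher in the tumour by 2.12 on the log2 scale in Ndufa4KO and 3.48 in WT, Cd63 by 3.56 and 5.10, Ctsd by 0.71 and 1.65 and Lgmn by 1.44 and 1.76. Higher in both genotypes were Ctsc, Ctsd, Ctsl, Ctsz, Cd63, Cd68 and Lgmn, and lower in both were Ctsf, Hexa, Lipa, Psap and Scarb2. Lamp1 was lower in Ndufa4KO alone, and Gusb and Tfeb were lower in WT alone. Ctss was higher in Ndufa4KO alone, by 0.64 against 0.20 in WT, and Ctsb, by 0.32 in Ndufa4KO and 0.75 in WT, was past 1.5-fold in WT alone, as were Ctsk, Atp6v0d2 and Mitf. None of these differences between genotypes was tested. Psap was lower in the tumour in both, at 2909 CPM in the tumour and 5180.4 CPM in the spleen of Ndufa4KO mice and at 2724 and 4788 CPM in WT mice. In non-classical monocytes of Ndufa4KO mice 6 of 27 members were lower in the tumour (Ctsd, Lgmn, Npc1, Psap, Grn and Tpp1, background 25.5%) and Cd63 was higher (background 9.74%). In those of WT mice 0 of 28 were lower (background 28.7%) and 7 higher (Ctsd, Ctsl, Cd63, Cd68, Npc1, Atp6v0d2 and Mitf, background 10.4%). Ctsd was at 110 CPM in the tumour and 169 CPM in the spleen of Ndufa4KO mice (-0.62, -0.94 to -0.31), and at 414 and 149.98 CPM in WT mice (1.46, 1.30 to 1.62). The Ndufa4KO value thus lay below its spleen level and the WT value above its own.

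**Figure D5:**
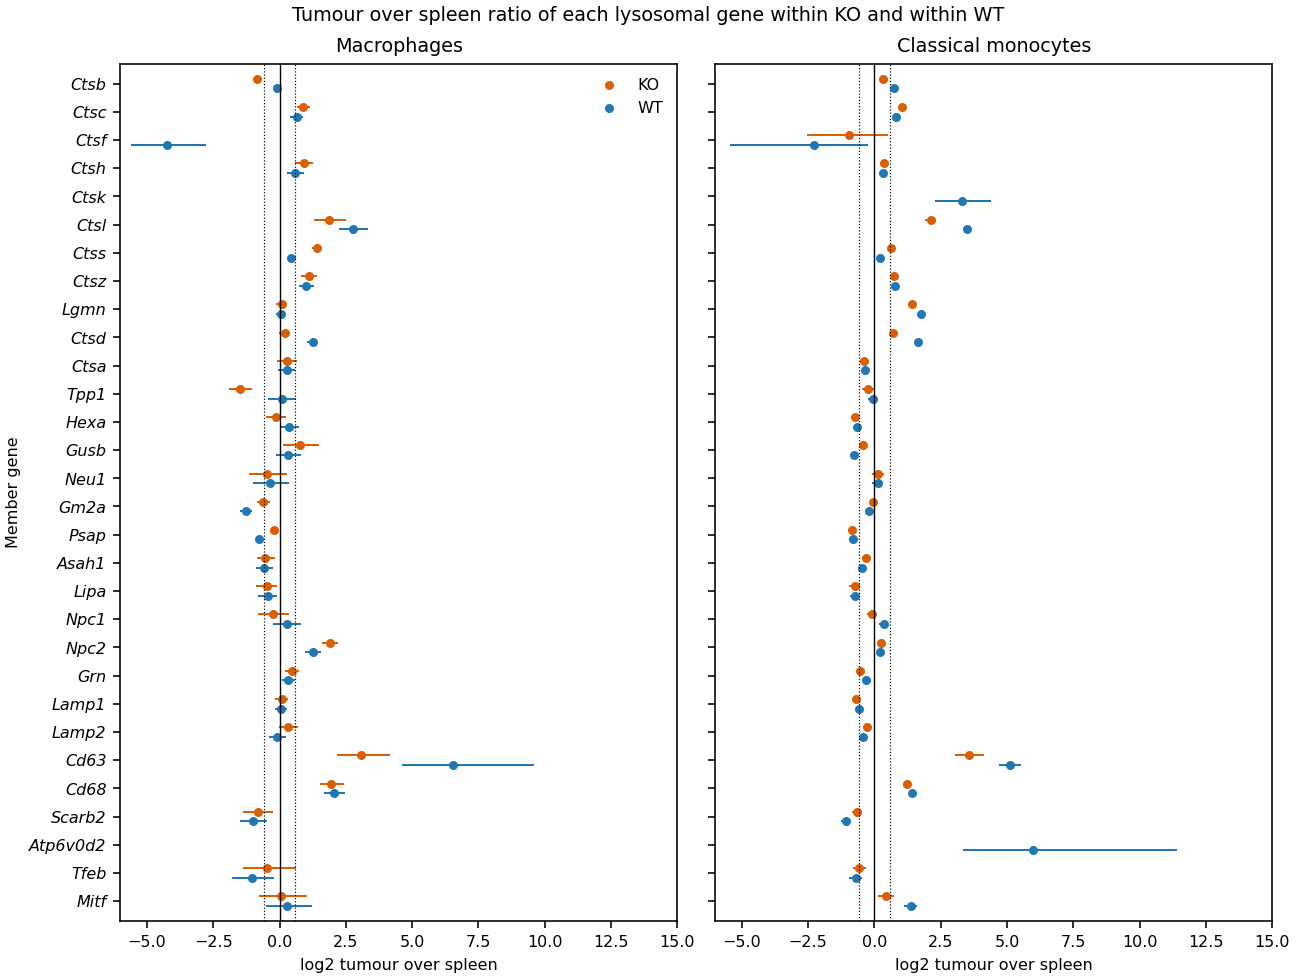
Log2 ratio of tumour over spleen for each of the 30 genes in macrophages and in classical monocytes, Ndufa4KO (KO, orange) and WT (blue), with the 95% counting interval as a line and dotted lines at 1.5-fold, and no point for a gene with too few UMIs or with 0 in 1 organ. Ctsd, Ctsl and Cd63 stand farther right in WT than in Ndufa4KO in both panels, and Ctss stands farther right in Ndufa4KO.

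Genes of the lysosome outside the set were described by fixed lists. In tumour macrophages 6 of 69 genes from lists of the V-ATPase, of other hydrolases and of membrane, sorting and docking proteins were lower by at least 1.5-fold and 1 was higher, with a median log2 ratio of -0.12, to be read against the backgrounds of 12.5% and 10.4%. Of the 16 V-ATPase genes 2 were lower, Atp6v0a1 at 41.7 CPM in Ndufa4KO and 77.2 CPM in WT (-0.89) and the catalytic subunit Atp6v1a at 155 and 242 CPM (-0.65), with Atp6v1c1 (-0.39) and Atp6v1b2 (-0.37) within 1.5-fold. Of 31 other hydrolases 4 were lower and 1 higher. The aspartic protease Ctse was at 4.95 CPM in Ndufa4KO and 21.8 CPM in WT (-2.14), the galactosylceramidase Galc at 25.7 and 46.2 CPM (-0.85), Dpp7 had a log2 ratio of -0.69 and Sgsh was lower on 17 and 74 UMIs. The thioesterase Ppt1 was higher, at 245 CPM in Ndufa4KO and 162 CPM in WT (0.60). Of 22 membrane, sorting and docking genes 0 were apart, with log2 ratios of -0.58 for Igf2r, 0.56 for Clcn7 and -0.54 for Cd164. In classical monocytes 3 of the 69 were lower and 1 higher, against backgrounds of 9.05% and 10.4%, and in red pulp macrophages of the spleen 6 of 50 lower and 8 higher, against 14.3% and 17.9%.

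Of 9 cathepsin inhibitors listed in the files, 5 had enough UMIs in tumour macrophages, 2 of them lower (background 12.5%) and 1 higher (background 10.4%). Serpinb6a was at 28.7 CPM in Ndufa4KO and 101 CPM in WT (-1.81, -2.09 to -1.54), and the stefin Stfa2l1 had 4 UMIs in Ndufa4KO and 106 in WT. Cst7, which encodes cystatin F, was higher on 28 and 26 UMIs, and Cstb (-0.25) and Cst3 (0.22) were within 1.5-fold. Of 8 genes of the MiT/TFE axis, Tfec (-0.80) and Rragd (8 UMIs in Ndufa4KO and 43 in WT) were lower (background 12.5%), and Gpnmb, at 175 CPM in Ndufa4KO and 258 CPM in WT (-0.56), Flcn (-0.51) and Fnip2 (-0.40) were within 1.5-fold.

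Uptake receptors feed the lysosome, and class II partners use its products. Of 10 uptake receptors 7 had enough UMIs in tumour macrophages, 5 of them lower (background 12.5%) and 0 higher (background 10.4%), with a median log2 ratio of -0.86. The scavenger receptor Stab1 was at 77.3 CPM in Ndufa4KO and 348 CPM in WT (-2.17), Mrc1 at 118 and 463 CPM (-1.97), Cd36 at 115 and 348 CPM (-1.60) and Mertk, a receptor for dying cells, at 34.9 and 63.4 CPM (-0.86). Mrc1 is also 1 of the 10 markers that define the macrophage gate. Of 8 partners in class II antigen processing 7 were higher (background 10.4%) and 0 lower (background 12.5%), with a median of 1.21. Ciita, the transactivator of class II genes, was at 182 CPM in Ndufa4KO and 44.0 CPM in WT (2.05), and H2-Eb1, H2-Ab1 and H2-Aa had log2 ratios of 1.39, 1.32 and 1.26. In classical monocytes of the tumour 5 of 7 uptake receptors were lower and 1 higher, and 7 of 8 class II partners were higher, against backgrounds of 9.05% lower and 10.4% higher. In the spleen, 1 of 8 class II partners was higher in red pulp macrophages (background 17.9%) and 0 in classical monocytes (background 6.71%). Ctss, whose product acts on the invariant chain encoded by Cd74, was higher in tumour macrophages, as was Cd74 itself, which was at 13753 CPM in Ndufa4KO and 6177 CPM in WT.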

How the data were processed

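The deposited files were 4 matrices of UMI counts per gene and cell barcode, 1 per organ and genotype, made with Cell Ranger 6.0.0 per the file headers. The submitters' processing notes name Cell Ranger 3.1, Seurat 3.1.4 and 3.1 and the mm10 and GRCm38 builds, with no role given. Libraries were 10x 3′ v3.1, per the labels, which count the 3′ end of transcripts, so CPM values are compared within a gene and not between genes.

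The members, gene lists and comparisons were chosen with earlier results of these data known. Cells with at least 200 genes, 500 UMIs and at most 10% mitochondrial UMIs were kept. Each cell was scored for 20 marker lists as the mean of log-normalized values capped at the 90th percentile of the organ's positive cells. It was gated to its best class at a score of 0.2 or more and a margin of 0.1. The margin was not asked between macrophages and classical monocytes, nor between neutrophils and immature granulocytes. A cell was left out as mixed when another lineage scored 0.3 or more. Immature granulocytes and classical monocytes were not counted as mixed with each other. This scoring rule was set after the data were seen, and no doublet caller was run. Macrophage subsets needed a scaled marker value of 0.3. Other classes were compared with at least 50 cells in both libraries, and subsets with at least 20. A class name can differ from the study's own, since names were rebuilt from markers.

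UMIs were summed per class and library and scaled to CPM. Ratios carry exact conditional binomial 95% intervals, levels exact Poisson intervals and shares of cells exact (Clopper-Pearson) intervals, all for counting error only. With 1 pooled library per group there is no replicate check. Text names each member at least 1.5-fold apart with at least 20 UMIs over both libraries in the comparisons described. Macrophages and monocytes taken as 1 class are excepted. Ctsb, Ctss, Lgmn, Lamp1, Tfeb and Mitf are all named in tumour macrophages, Arg1 macrophages, tumour monocytes, red pulp macrophages and spleen non-classical monocytes. In other comparisons they need not all be named. The text names up to 4 genes of each other list by size of ratio among those with at least 100 UMIs. Rragd, Sgsh, Cst7 and genes beyond this rule were named after their values were seen, as was the 8-base motif TCACGTGA. Alternatives covered depth, cell weight, scaling, filters, gates, fold and subset mix. Python 3.11.15, numpy 2.4.6, scipy 1.17.1, pandas 2.3.3 and matplotlib 3.10.9 were used, and the scripts were tested on simulated counts.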

Additional observations from a re-analysis of the deposited data

Results flagged for a closer look

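Across macrophages, monocytes, neutrophils, NK and T cells, 3 members had opposite Ndufa4KO over WT ratios in tumour and spleen, past 1.5-fold in both. Lipa also did in type 2 dendritic cells, lower in the tumour and higher in the spleen, as given above. No share of all genes is given beside this count. Tpp1 had a log2 ratio of -0.67 in tumour macrophages and 0.91 in spleen red pulp macrophages, in the spleen on 68 UMIs in Ndufa4KO and 38 in WT. With equally weighted cells the spleen ratio of Tpp1 was -0.15, and with the Ndufa4KO subsets weighted to the WT mix its tumour ratio was -0.56. Mitf had -0.73 in tumour non-classical monocytes, on 9 and 16 UMIs, and 0.62 in those of the spleen, on 37 and 75 UMIs. Ctsh had 2.57 in tumour NK cells, on 35 UMIs in Ndufa4KO and 1 in WT (95% interval 0.00 to 7.92), and -0.80 in spleen NK cells, on 99 and 84 UMIs. With 1 library per group these differences were not tested.

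Barcodes that passed the melanoma gate, 18 in the Ndufa4KO and 42 in the WT tumour library, are in no comparison. Mitf, the melanocyte lineage factor, was at 195.7 CPM in those of Ndufa4KO tumours and 793.02 CPM in those of WT tumours. Cd63 was at 2217 CPM in Ndufa4KO and 1186 CPM in WT in these barcodes, and Ctss at 9.55 and 10.2 CPM. These barcodes passed a CD45 sort, and whether they are tumour cells, doublets or free RNA was not tested.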

How the results depend on the processing

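No paired analysis was possible because each group held 1 pooled library. Of the alternatives tried on the counts of members at least 1.5-fold apart, 245 left the count within 1.5 times its value and 75 did not. For those 75 the cause was not tested, except that a stricter fold or UMI minimum changes the count by construction. No share of all genes is given for the alternatives. Whether a count below rose or fell along with all genes can therefore not be read from it. Cells thinned to 1000 UMIs gave 5 members apart in tumour macrophages, 4 in classical monocytes, 4 in plasmacytoid, 3 in type 2 and 1 in migratory dendritic cells, 2 in B cells and 3 in macrophages of no subset. In the spleen they gave 4 in red pulp macrophages, 1 in classical and 0 in non-classical monocytes, 6 in B and 1 in T cells, and 20 for WT macrophages tumour over spleen. Equal weight per cell gave 3 in T cells, 5 in plasmacytoid dendritic cells, 3 in macrophages of no subset, 8 in red pulp macrophages, 1 in spleen NK and 9 in spleen T cells, and 4 for Ndufa4KO non-classical monocytes tumour over spleen. A mitochondrial limit of 20% gave 6 in Ccl8 or Vcam1 macrophages 0 in spleen non-classical monocytes, 1 in spleen B cells and 0 in spleen type 2 dendritic cells, and no limit gave 5, 0, 1 and 1, with 2 in plasmacytoid dendritic cells. A gate margin of 0.2 gave 1 in T cells and, in the spleen, 1 in NK cells, 2 in T cells and 6 in type 2 dendritic cells. Mixed cells kept gave 3 in T cells, 3 in plasmacytoid dendritic cells, 3 in spleen neutrophils, 4 in spleen NK cells and 1 in spleen type 2 dendritic cells. The top 5% of cells by UMIs left out gave 2 in Cxcl9 macrophages, 3 in T cells, 0 in plasmacytoid dendritic cells and 1 in spleen NK cells. A margin also between neighbouring classes, chosen after seeing the data, gave 2 in Cxcl9 macrophages and 3 in those of no subset. A fold of 2 gave 4 in tumour macrophages, 3 in Arg1, 0 in Cxcl9, 2 in Ccl8 or Vcam1 macrophages, 1 in those of no subset, 6 in macrophages and monocytes together, 3 in neutrophils, 2 in T cells, 3 in NK cells, 4 in B cells and 1 in migratory dendritic cells. It gave 0 in red pulp macrophages and in spleen non-classical monocytes, NK, T, B and type 2 dendritic cells, and, tumour over spleen, 7 in Ndufa4KO macrophages, 5 in Ndufa4KO and 10 in WT classical monocytes, and 1 in Ndufa4KO and 4 in WT non-classical monocytes. Centred on the median of all genes, WT non-classical monocytes had 11. No UMI minimum gave 2 in plasmacytoid dendritic cells, 4 in red pulp macrophages, 1 in spleen classical and 4 in spleen non-classical monocytes, 2 in spleen neutrophils, 5 in spleen NK cells, 8 in spleen T cells and 5 in spleen type 2 dendritic cells.

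Of single members, Atp6v0d2 reversed in tumour macrophages to 0.45 (thinned), 0.072 (equal weight) and 0.64 (WT subset mix). In WT macrophages tumour over spleen its thinned value was -0.81. It had 0 UMIs in the spleen class, so that value rests on the floor of 3 counts and gives no direction. Tpp1 reversed to -0.15 in red pulp macrophages with equal weight. In tumour macrophages Ctsl (-0.46) and Cd63 (-0.53) came within 1.5-fold when thinned, as did Cd63 with equal weight (-0.58) and Tpp1 with the WT mix (-0.56). Ctsd stayed past 1.5-fold and lower, and Ctss past it and higher, under each alternative run except the 2-fold rule for Ctss. The range of Ctss was 0.63 to 0.74.

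Pools of 3 mice by the study design, 1 pool per group, limit every result, since no spread between animals was measured. Red pulp macrophages were shallow.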
